A study of Mus musculus with 19 samples.

Results

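The genes described here are 10 inflammatory cytokines and chemokines, Il1b, Il1a, Tnf, Il6, Lif, Csf1, Ccl2, Ccl7, Cxcl1 and Cxcl2, in GFP-sorted cells of the dorsal root ganglion (DRG) that had received either α9 integrin and kindlin-1 (α9k1) or GFP, with or without a crush of the dorsal roots. Il1b and Il6 were chosen from their measured values, since both rise strongly with the 2 proteins, and the others were added as genes of the same kind. Every comparison below shares libraries with those that chose Il1b and Il6, so their differences are given as descriptions without a test, and calls are counted over the other 5 genes with values. Of the 10 genes, 7 had a row among the 12629 genes of the expression table. Lif, Tnf and Cxcl2 had no row by symbol or by Ensembl identifier and were not analysed here, so nothing below speaks for them. Genes with few reads had been removed by the authors, so the 7 are those that passed that filter.

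Each library came from DRG cells sorted for GFP by FACS at 8 weeks after viral injection into the left cervical DRGs. GFP-naive libraries (n = 5) are from animals that received AAV5 carrying fGFP under the CMV promoter. The α9k1-naive libraries (n = 6) are from animals that received a mixture of AAV5 for V5-tagged α9 integrin under the CAG promoter and AAV5 for kindlin-1 fused to GFP under the CMV promoter. For GFP-crush (n = 4) and α9k1-crush (n = 4) libraries, animals received the same viruses together with a crush of the dorsal roots. As GFP marks kindlin-1 and not α9, a sorted α9k1 cell need not have carried α9. Neither promoter is restricted to neurons. The animals are C57BL/6 mice by the labels but 2-month-old male Lewis rats by the study's methods, and the sources also differ on the enzyme (papain, or trypsin with collagenase) and the RNA kit. Mismatches to the mouse genome made up 3.87 to 4.05% of aligned bases per library. The reads were aligned to the mouse genome in either case, which makes levels of different genes hard to compare, and levels are compared here only within a gene. Depth ran from 36.4 to 87.6 M read pairs a library, with 47.5 to 54.1% of reads aligned.

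Both injected genes were read out first. Fermt1, which encodes kindlin-1, had a normalized expression (log2) of 0.62 ± 0.16 (SD, n = 5) with GFP and 5.58 ± 0.33 (n = 6) with α9k1 in naive animals, and of 0.57 ± 0.12 (n = 4) and 7.17 ± 0.66 (n = 4) after crush. Itga9, the α9 subunit, stood at 2.11 ± 0.25, 3.87 ± 0.92, 1.51 ± 0.44 and 6.59 ± 0.82 in the same order. The lowest α9k1-naive library held 2.38 for Itga9, inside the GFP-naive range of 1.77 to 2.40. All 14 sensory neuron markers had rows, among them Rbfox3, Tubb3, Prph, Avil and Isl1, but so did all 12 satellite glia and Schwann cell markers and 12 of 16 macrophage markers, so transcripts of other cell types were present.

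Interleukin-1 (IL-1) is made as 2 related proteins, IL-1β and IL-1α, which signal through one receptor to NF-κB and AP-1 and induce other cytokines. IL-6 is a cytokine of the gp130 family that injured sensory neurons and glia can make and that is tied to regeneration of their axons. Ccl2 and Ccl7 encode chemokines that draw monocytes, Cxcl1 encodes a chemokine that draws neutrophils, and Csf1 encodes a growth factor for macrophages and microglia that sensory neurons release after nerve injury. In a DRG these transcripts can come from neurons, satellite glia, macrophages or fibroblasts.

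The stretch of 250 bases before the start of 4 of the genes is shown. The 4 were picked after their values were seen, as transcripts that moved together in some comparisons and apart in others. Whether the letters bear on these patterns was not tested. The sequences are from RefSeq on GRCm38.p6, read 5′ to 3′ on the strand of the gene, and are those of the mouse, whichever species the animals were. Capitals mark matches on either strand to the NF-κB motif and to the AP-1 motif TGANTCA. The windows are chr5:30012864-30013113 (plus strand) for Il6, chr5:90890995-90891244 (plus) for Cxcl1, chr2:129309973-129310222 (minus) for Il1a and chr2:129371140-129371389 (minus) for Il1b. RefSeq windows were at hand for 8 of the 10 genes, without Ccl2 and Ccl7.
Il6: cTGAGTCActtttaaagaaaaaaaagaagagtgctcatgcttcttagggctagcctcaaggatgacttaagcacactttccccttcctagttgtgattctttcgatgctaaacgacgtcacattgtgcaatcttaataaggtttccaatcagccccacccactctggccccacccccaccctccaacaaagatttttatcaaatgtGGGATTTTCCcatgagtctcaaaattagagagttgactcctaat
Cxcl1: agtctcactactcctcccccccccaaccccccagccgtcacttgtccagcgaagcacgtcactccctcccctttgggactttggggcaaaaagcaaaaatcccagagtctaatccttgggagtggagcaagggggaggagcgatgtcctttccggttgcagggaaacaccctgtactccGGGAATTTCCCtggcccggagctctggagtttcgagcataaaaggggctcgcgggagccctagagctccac
Il1a: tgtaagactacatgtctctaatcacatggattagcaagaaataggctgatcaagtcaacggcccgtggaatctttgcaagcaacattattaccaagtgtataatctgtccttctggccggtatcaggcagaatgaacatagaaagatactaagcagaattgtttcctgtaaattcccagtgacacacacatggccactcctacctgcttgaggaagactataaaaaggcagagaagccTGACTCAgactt
Il1b: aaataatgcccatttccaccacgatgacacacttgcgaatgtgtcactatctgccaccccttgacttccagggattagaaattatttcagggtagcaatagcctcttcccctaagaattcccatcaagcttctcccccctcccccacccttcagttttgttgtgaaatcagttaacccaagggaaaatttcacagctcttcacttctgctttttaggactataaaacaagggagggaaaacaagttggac

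Il6 held 1 NF-κB match, 44 to 35 bases before the start, and 1 AP-1 match at 249 to 243. Cxcl1 held 2 NF-κB matches that overlap each other, at 71 to 62 and 70 to 61. Il1a held 1 AP-1 match at 12 to 6, and Il1b held no match to either motif in these letters. Csf1 held 1 NF-κB match at 154 to 145. Of 32851 windows of 250 bases, 3.90% held the NF-κB motif and 6.75% the AP-1 motif. A match is a description of the letters and not a site of binding.

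In the mouse annotation, Il1b (chromosome 2, 129364570 to 129371139) and Il1a (chromosome 2, 129299610 to 129309972) lie 54598 bases apart, and Ccl2 (chromosome 11, 82035571 to 82037453) and Ccl7 (chromosome 11, 82045712 to 82047525) lie 8259 bases apart. Il6 (30013114 to 30019981) and Cxcl1 (90891241 to 90893115) are on chromosome 5, and Csf1 (107741048 to 107760469) is on chromosome 3. No stretch of 31 bases in their annotated transcripts was shared with another gene, for any of the 7.

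Without crush, all 7 genes were higher in α9k1 libraries. The question is which of the other 5 followed Il1b and Il6. Differences are fitted log2 fold changes (log2FC) with their SE from 1 limma fit of all 19 libraries, and a gene was called at an adjusted p under 0.1. Ccl7, Ccl2, Cxcl1 and Csf1 were called higher. Il1a was called too, but its row carries a limit given with its values. Over all genes, 11.4% were called higher and 17.6% lower. The median log2FC of the 4 was 3.88, against -0.08 over all genes.

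Il1b encodes IL-1β, which is made as an inactive precursor. Its normalized expression (log2) was 0.76, 1.82, 2.20, 0.96 and 2.52 in the GFP-naive libraries and ranged from 7.61 to 8.87 in α9k1-naive with a median of 7.92. The groups were far apart, and the GFP-naive libraries were spread more widely than the α9k1-naive ones. The log2FC was 6.39 ± 0.50, an 84.2-fold difference and the highest of all 12629 genes. All GFP-naive values lay under 2.57, the level that every gene of the table reached in some library, so the exact fold change is uncertain. As these values chose the gene, they carry no test.

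Il1a encodes IL-1α, which damaged cells can release in active form. The GFP-naive libraries held 0.28, 0.32, 0.32, 0.31 and 0.33, and the α9k1-naive libraries ranged from 2.78 to 4.33 with a median of 3.70. All 5 GFP-naive values were alike and near the floor of the table, where the authors' pseudocount weighs most and a fold change is understated. Its row may have passed the authors' filter only through the α9k1 groups where it is high, in which case it had to differ, so its call adds no support. The log2FC was 3.01 ± 0.36 (adjusted p = 3.0e-05).

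Il6 levels were 1.29, 1.49, 1.87, 2.43 and 1.89 in GFP-naive and ran from 7.44 to 7.67 (median 7.48) in α9k1-naive. The 6 α9k1-naive libraries were within a narrow band, with an SD of 0.086, and the GFP-naive libraries lay well below. The log2FC was 5.83 ± 0.20, or 56.8-fold, next after Il1b in the ranking of all genes, and again without a test. As for Il1b, all GFP-naive values lay under 2.57, so the exact fold change is uncertain.

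Csf1 had the smallest difference of the 7. GFP-naive libraries held 3.55, 3.62, 3.92, 3.68 and 3.18, and α9k1-naive libraries 4.48 to 5.06 with a median of 4.87. The groups did not overlap. The log2FC was 1.17 ± 0.22, or 2.25-fold (adjusted p = 0.0015), at place 495 of all genes.

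Ccl2 was at 8.13, 8.41, 8.24, 8.25 and 8.28 in GFP-naive and at 11.9 to 12.1 (median 12.0) in α9k1-naive. Each group was tight. The log2FC was 3.91 ± 0.16, or 15.0-fold (adjusted p = 4.3e-10). Ccl7, its neighbour on the chromosome, was at 4.92, 5.10, 4.64, 4.85 and 5.17 in GFP-naive and at 9.55 to 9.91 (median 9.70) in α9k1-naive. Its log2FC of 4.98 ± 0.27, or 31.7-fold (adjusted p = 1.1e-08), held place 4 among all genes.

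Cxcl1 was at 4.25, 4.65, 4.33, 4.44 and 4.37 in GFP-naive and at 7.98 to 8.49 (median 8.27) in α9k1-naive. The distance between the groups was many times the spread within either. The log2FC was 3.86 ± 0.23, or 14.5-fold (adjusted p = 2.4e-08). For these 4 genes, every α9k1-naive library lay above every GFP-naive library, as it did for 8.43% of all genes. The 4 were called in each alternative fit and in each fit without 1 library.

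**Figure D1:**
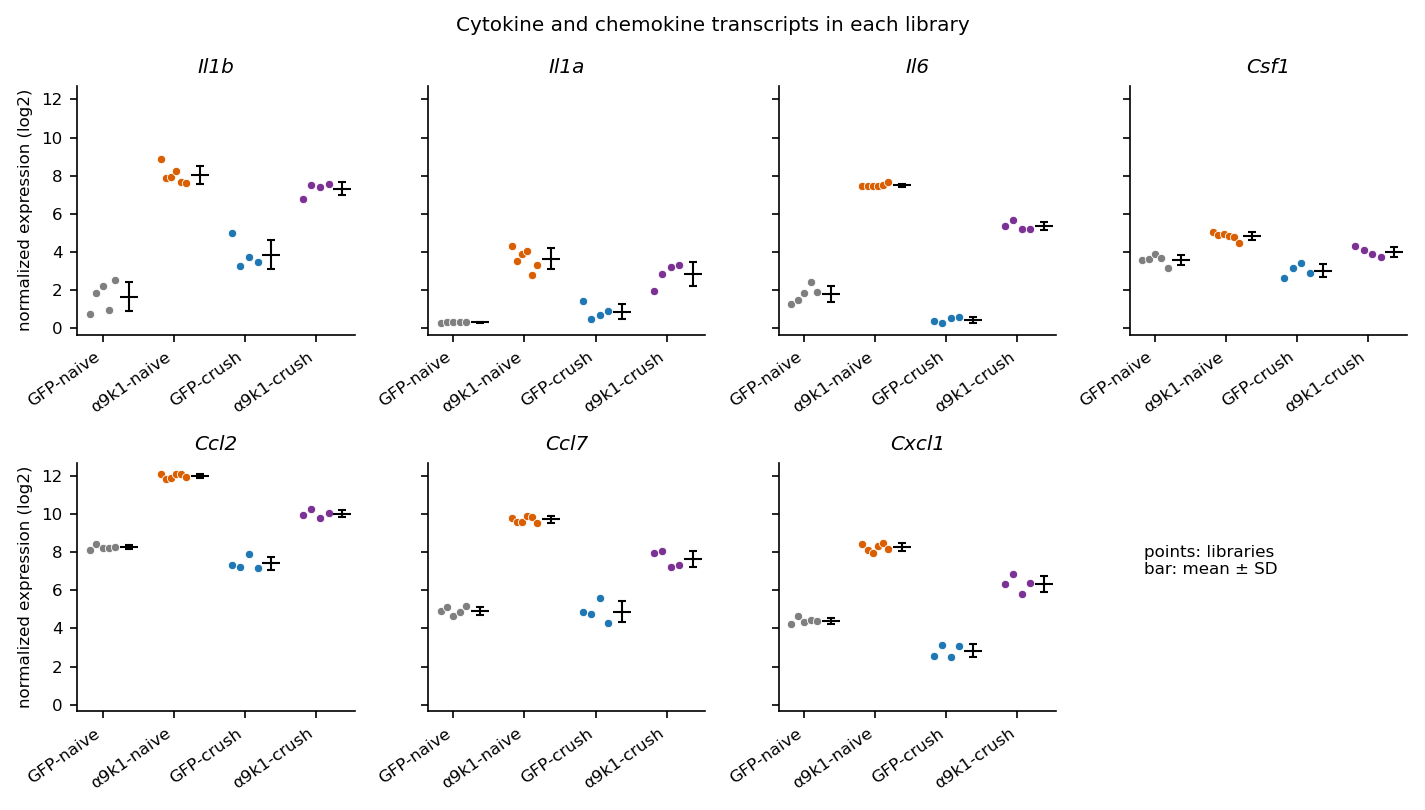
Normalized expression (log2, deposited values) of 7 cytokine and chemokine genes, 1 panel a gene, with a point for each library in the 4 groups and the mean ± SD beside the points. All 7 were higher in α9k1-naive than in GFP-naive, and in GFP-crush Il1b lay above and Il6, Ccl2 and Cxcl1 below GFP-naive.

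Dorsal root crush was then compared with no crush in GFP libraries. Of the 5 genes tested, Ccl2, Cxcl1 and Csf1 were called lower, while Il1a and Ccl7 were not called. Il1b lay higher and Il6 lower than in GFP-naive. Over all genes, 7.39% were called higher and 15.7% lower. The median log2FC of the 5 was -0.59, against -0.08 over all genes. This comparison shares the GFP-naive libraries with the one above, so the values of both are given side by side and not as separate evidence.

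Il1b stood at 4.98, 3.24, 3.74 and 3.50 in the GFP-crush libraries, above all 5 GFP-naive libraries. Its log2FC was 2.19 ± 0.50, or 4.56-fold, with no test. Il1a stood at 1.45, 0.50, 0.67 and 0.89, also above all 5 GFP-naive libraries, with a log2FC of 0.79 ± 0.36 (adjusted p = 0.15). Both were highest in GFP-crush replicate 1. Every GFP-crush library lay above every GFP-naive library for 7.59% of all genes.

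Il6 stood at 0.37, 0.26, 0.52 and 0.57 in GFP-crush, below every GFP-naive library. Its log2FC was -1.44 ± 0.20, again with no test. Cxcl1 stood at 2.58, 3.13, 2.52 and 3.11, with a log2FC of -1.61 ± 0.23 (adjusted p = 0.00064). Ccl2 stood at 7.34, 7.21, 7.92 and 7.19, with a log2FC of -0.98 ± 0.16 (adjusted p = 0.0013). Both chemokines were below every GFP-naive library, as were 12.2% of all genes.

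Ccl7 was at 4.86, 4.78, 5.59 and 4.27 in GFP-crush, around the GFP-naive values. Its log2FC of -0.13 ± 0.27 (adjusted p = 0.78) changed sign under quantile normalization and median centring. Csf1 was at 2.61, 3.18, 3.40 and 2.89 and overlapped GFP-naive, with a log2FC of -0.59 ± 0.22 (adjusted p = 0.083). The call of Csf1 was lost when any 1 of 8 libraries was left out (GFP-naive 1, 2, 3 or 4, GFP-crush 1, 2 or 4, or α9k1-crush 3), with adjusted p between 0.10 and 0.23.

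Of the called genes in this comparison, 32.0% were higher, which became 60.7% when each library was centred on its median and 46.8% after quantile normalization. Centring moved the median log2FC of all genes by 0.14. After it, the log2FC was 2.33 for Il1b and -1.30 for Il6, -1.47 for Cxcl1 and -0.85 for Ccl2, the latter both still called, and -0.45 for Csf1 (adjusted p = 0.16). Il1a, at 0.93, was then called (adjusted p = 0.090), as it was without α9k1-crush replicate 4 (adjusted p = 0.087).

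After crush, α9k1 was compared with GFP again. Ccl2, Ccl7, Cxcl1 and Csf1 were higher in every α9k1-crush library than in every GFP-crush library, as were 20.0% of all genes. The 3 other genes were separated likewise but were chosen by their values (Il1b and Il6) or may be in the table through α9k1 libraries alone (Il1a). Without Il1a, 3 of the 4 genes tested were called higher, Ccl2, Ccl7 and Cxcl1. Over all genes, 0.728% were called higher and 0.182% lower. The median log2FC without Il1a was 2.94, against 0.01 over all genes.

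Il6 was at 5.38, 5.67, 5.22 and 5.19 in α9k1-crush. These values lay far above GFP-crush, with a log2FC of 5.71 ± 0.43 or 52.4-fold, and 4.93 without covariates. As with Il1a in GFP-naive, these GFP-crush values are near the floor of the table, so the fold change may be understated. Il1b was at 6.80, 7.52, 7.41 and 7.58, with a log2FC of 4.01 ± 1.08 or 16.1-fold. The lowest α9k1-crush library, replicate 1, was still above GFP-crush replicate 1, the highest of its group. The log2FC of Il1b fell to 3.09 without GFP-naive replicate 1 and 3.23 without GFP-crush replicate 2, and was 6.19 in a fit of these 2 groups alone. Neither difference was tested, for the reason given above.

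Cxcl1 was at 6.36, 6.83, 5.83 and 6.37 in α9k1-crush, with a log2FC of 3.61 ± 0.51 or 12.2-fold (adjusted p = 0.0026). Ccl2 was at 9.97, 10.2, 9.80 and 10.1, with a log2FC of 3.02 ± 0.34 or 8.13-fold (adjusted p = 0.00049). Ccl7 was at 7.95, 8.09, 7.23 and 7.31, with a log2FC of 2.85 ± 0.59 or 7.21-fold (adjusted p = 0.041). All 3 chemokines stood apart from their GFP-crush libraries. The call of Ccl7 was lost without GFP-naive replicate 1 (adjusted p = 0.17), α9k1-naive replicate 4 (0.18) or GFP-crush replicate 2 (0.21).

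Il1a was at 1.96, 2.84, 3.23 and 3.34, with a log2FC of 1.75 ± 0.78 (adjusted p = 0.53). Csf1 was at 4.31, 4.12, 3.90 and 3.71, with a log2FC of 0.79 ± 0.48 (adjusted p = 0.65). Neither was called, although neither overlapped its GFP-crush libraries. The 3 covariates, which summarize the sequencing metrics, raised the sum of squared weights of this contrast from 0.50 to 3.11, so its errors were wide. The sum rose from 0.42 to 2.12 for α9k1-crush versus α9k1-naive and from 0.87 to 2.78 for the interaction. The third covariate ran from -4.49 to -2.55 in α9k1-crush and was no lower than -1.59 in the other groups. Without covariates Ccl2, Ccl7, Cxcl1 and Csf1 were all called, with a log2FC of 0.99 for Csf1 (adjusted p = 0.00025). So was Il1a, at 1.96 (adjusted p = 6.0e-05), a call that adds no support for the reason given above. Without covariates, 29.6% of all genes were called higher and 28.3% lower. In a fit of the 2 crush groups alone, limma called 0 of the 5, with 2 at an unadjusted p under 0.05. That fit gave a log2FC of 3.08 for Ccl2 (adjusted p = 0.41), 2.58 for Ccl7 (adjusted p = 0.74) and 2.78 for Cxcl1 (adjusted p = 0.76), and of -0.15 for Csf1.

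**Figure D2:**
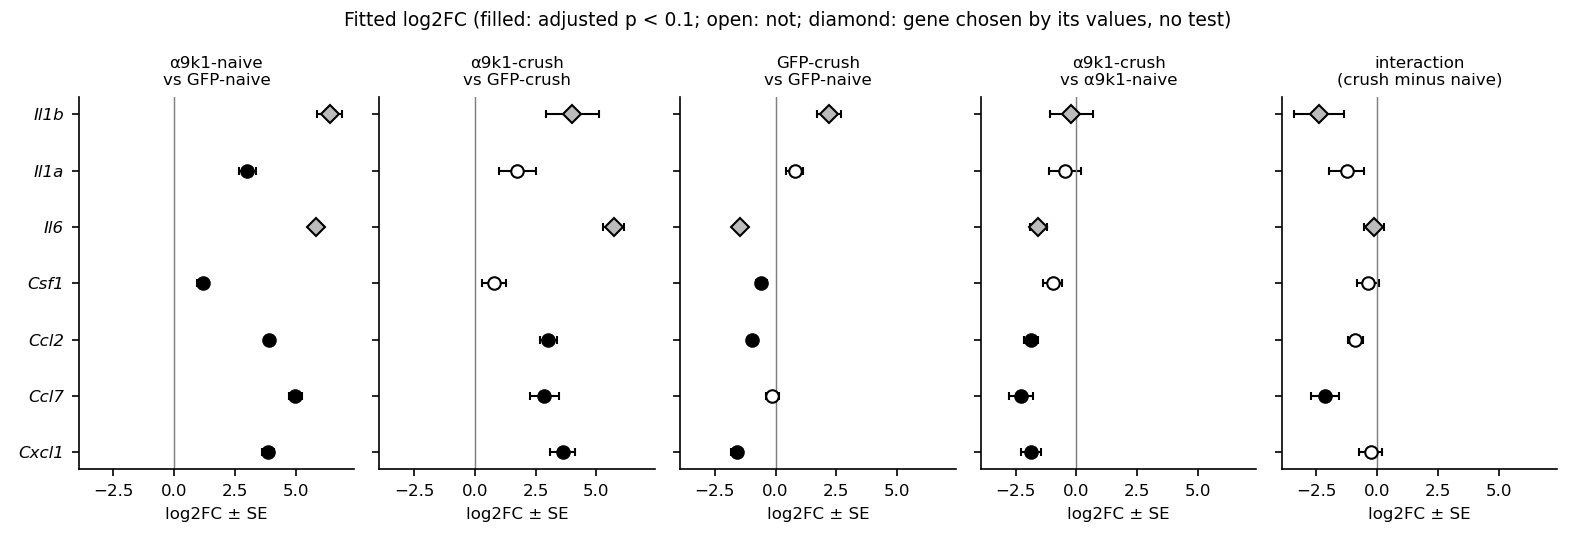
Fitted log2FC ± SE (x axis) of the 7 genes (rows) in 4 comparisons and for the interaction, with filled circles for an adjusted p under 0.1, open circles for others and grey diamonds for Il1b and Il6, which were chosen by their values and have no test. In the last panel Ccl7 alone is filled, at -2.14.

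With α9k1 present, crush and naive libraries were compared directly. The 2 injected genes were themselves called higher in α9k1-crush. Their log2FC was 1.67 ± 0.49 for Fermt1 (adjusted p = 0.059) and 3.51 ± 0.93 for Itga9 (adjusted p = 0.040). This difference also enters the interaction below, and its part in the cytokine results was not tested. Of the 5 genes tested, Ccl2, Ccl7 and Cxcl1 were called lower after crush, and Il1a and Csf1 were not called. Over all genes, 4.47% were called higher and 5.27% lower. The log2FC was -1.87 ± 0.28 for Ccl2 (adjusted p = 0.0024), -2.27 ± 0.49 for Ccl7 (adjusted p = 0.016) and -1.86 ± 0.42 for Cxcl1 (adjusted p = 0.019). It was -0.97 ± 0.39 for Csf1 (adjusted p = 0.17) and -0.47 ± 0.64 for Il1a (adjusted p = 0.74). With no test, it was -1.56 ± 0.36 for Il6 and -0.20 ± 0.89 for Il1b, both set against the α9k1-naive libraries in which they were chosen for being high. Without covariates all 5 genes were called lower, as were 27.1% of all genes, with 28.5% higher.

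Every α9k1-crush library lay below every α9k1-naive library for 4 of the 5 genes tested, as for 16.1% of all genes, and Il1a overlapped. For Il1b, which was chosen for being high in α9k1-naive, the gap was narrow, from 7.58 in the highest α9k1-crush library to 7.61 in the lowest α9k1-naive library, and its log2FC changed sign without GFP-naive replicate 4 (0.48), GFP-naive replicate 5 (0.13) or α9k1-naive replicate 1 (0.41). In a fit of the 2 α9k1 groups alone, limma called 0 of the 5, with 4 at an unadjusted p under 0.05. The log2FC of Il6 was -2.62 in that fit and -1.20 without α9k1-naive replicate 4.

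Whether crush altered the α9k1 effect was tested by the interaction, which subtracts the α9k1 effect in naive animals from that in crushed ones. Of the 5 genes tested, Ccl7 alone was called, with an interaction of -2.14 ± 0.56 (adjusted p = 0.092). Its α9k1 effect was 4.98 without crush and 2.85 after it. Over all genes, 1.35% had a called positive interaction and 0.847% a called negative one. The call of Ccl7 was lost without any 1 of 12 libraries (GFP-naive 1, 3, 4 or 5, α9k1-naive 1, 2, 3 or 5, GFP-crush 1 or 2, or α9k1-crush 3 or 4), with adjusted p between 0.10 and 0.24.

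Il1a had an interaction of -1.25 ± 0.74 (adjusted p = 0.47) and Ccl2 of -0.88 ± 0.32 (adjusted p = 0.22). Csf1 had -0.38 ± 0.45 (adjusted p = 0.77) and Cxcl1 -0.25 ± 0.48 (adjusted p = 0.87). With no test, Il1b had -2.39 ± 1.02 and Il6 -0.12 ± 0.41. The estimates were negative for all 7 genes. For Il6, Cxcl1 and Csf1 they were smaller than their SE. Il1b and Il6 were chosen by an effect that enters this difference, so a lower value after crush is less informative for them, and that of Il6 also rests on GFP-crush values near the floor.

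Without covariates, 3 of the 5 interactions were called, -2.01 for Ccl7, -1.37 for Il1a and -1.12 for Ccl2, as were 16.1% of all genes with a negative and 23.3% with a positive one. The call of Il1a adds no support, as its row may be in the table only through the α9k1 groups. Of all interactions called with the covariates, 61.5% were positive, which became 41.4% with each library centred on its median and 48.9% after quantile normalization. Centring moved the median interaction of all genes by -0.13. Ccl7 was called under both scalings, at -2.26 (adjusted p = 0.064) and -2.37 (adjusted p = 0.063).

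The 7 genes followed different orders over the 4 groups. Il6, Ccl2 and Cxcl1 were highest in α9k1-naive, then in α9k1-crush, GFP-naive and GFP-crush, with no overlap between any neighbours in that order. Il1b and Il1a were also highest in α9k1-naive but lowest in GFP-naive, and their α9k1-crush and α9k1-naive libraries came close (Il1b) or overlapped (Il1a). Ccl7 overlapped between the GFP groups, and Csf1 between the GFP groups and between α9k1-crush and GFP-naive.

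Likeness of pattern was measured as the mean absolute difference from a gene over the 19 libraries, after each gene was scaled to an SD of 1. Ccl2 was within 0.13 of Cxcl1 and of Il6 and within 0.14 of Ccl7. Il1a and Il1b were 0.23 apart, and Il1a had Il1b as the 3rd closest of all genes. Il1b and Csf1, at 0.59, were the least alike of the 7. As the libraries share their groups, these distances mostly describe the group means.

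The 3 genes closest to Il6 were Fosl2 (0.087), Irf1 (0.10) and Rsad2 (0.11). Those closest to Il1b were Cd83, Gm43392 and H2-Q7, all at 0.22, and those closest to Il1a, before Il1b, were Gm15542 and Gm8909, both at 0.21. Ccl2 was closest to Ifrd1 (0.061), Pakap (0.086) and Atf3 (0.096), and Ccl7 to Cd274 (0.10), Mb21d1 (0.12) and Cxcl10 (0.12). Cxcl1 was closest to Arid5a (0.076), Zfp36 (0.098) and Socs3 (0.11), and Csf1 to Sdc4 (0.18), Ripk2 (0.20) and Mafk (0.22).

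Every gene of the table reached at least 2.57 (log2) in some library, and 14 of the list genes called higher with α9k1 without crush stayed under that in every GFP-naive library. These were Tnfrsf1b, Il1rn, Tnfaip3, Zc3h12a, Il18, Il12b, Tnfsf9, Ccl9, Ccl12, Cxcl3, Ptgs2, Nos2, Birc3 and Traf1. Like Il1a, they may be in the table only through groups where they are high, so counts without such genes are given as well and the calls of these genes add no support. The list medians still include them. The same holds for Il1rn, Il18, Tnfsf9, Ccl9, Ccl12, Birc3 and Traf1 among the genes called higher for crush with GFP, and, against GFP-crush libraries, for Tnfaip3 and Nos2 with α9k1 after crush. In the interaction it holds for Ccl12 and Birc3.

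Receptors of these cytokines were next. For this list and those after it, called counts stand against 11.4% higher and 17.6% lower of all genes for α9k1 without crush, 7.39% and 15.7% for crush with GFP, and 0.728% and 0.182% for α9k1 after crush. Of 14 listed genes, 7 had rows, and Il1r1, Il6ra, Ccr1, Ccr2, Ccr3, Cxcr2 and Il1r2 were not among them. With α9k1 and no crush, 3 of 7 were called higher (2 of 6 without such genes) and 4 were not called, with a list median of 0.37. These were Tnfrsf1b (log2FC 1.97 ± 0.33, adjusted p = 0.00059) and Tnfrsf1a (1.07 ± 0.15, adjusted p = 0.00011), the 2 TNF receptors, and Il1rap (0.52 ± 0.18, adjusted p = 0.047), the shared subunit of the IL-1 receptor. Crush with GFP lowered Il6st, which encodes gp130 (-0.77 ± 0.17, adjusted p = 0.010), and Il1rap (-0.56 ± 0.18, adjusted p = 0.047). With α9k1, crush lowered Il1rap (-1.04 ± 0.32) and Tnfrsf1a (-0.95 ± 0.26). Between α9k1-crush and GFP-crush, limma called 0 of the 7, with 1 at an unadjusted p under 0.05. The α9k1 call of Il1rap in naive animals was lost without GFP-naive replicate 4 or GFP-crush replicate 3 (adjusted p up to 0.11), and its call for crush with GFP without GFP-naive replicate 2 or GFP-crush replicate 1 (up to 0.16). With α9k1, the crush calls of Il1rap and Tnfrsf1a were made in 11 and 17 of the 19 fits without 1 library, Tnfrsf1a being lost without replicate 1 of GFP-naive or of α9k1-naive (up to 0.13). Fits of the 2 groups compared ended both calls (adjusted p = 0.54 and 0.78) and those of Il6st and Il1rap for crush with GFP (0.16 and 0.14).

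Genes for the processing and release of IL-1 and TNF had rows for 7 of 12. Casp1, the protease that matures IL-1β, rose with α9k1 by 1.33 ± 0.18 (adjusted p = 0.00010), and Casp4, an inflammatory caspase, by 1.01 ± 0.16 (adjusted p = 0.00040). The other 5 were not called, and the list median was -0.10. Casp1 had an interaction of -2.20 ± 0.37 (adjusted p = 0.013). With α9k1, the log2FC of crush was -1.63 ± 0.33 for Casp1 and -1.57 ± 0.29 for Casp4. With GFP, crush raised Casp1 (0.58 ± 0.18, adjusted p = 0.047) and Capn1, a calpain (0.43 ± 0.11), and lowered Adam17, the protease that sheds TNF (-0.67 ± 0.18), and Casp4 (-0.41 ± 0.16, adjusted p = 0.0996). The call of Casp1 there was lost without GFP-naive replicate 3 or GFP-crush replicate 4 (adjusted p up to 0.14), and that of Casp4 was made in 5 of the 19 fits without 1 library.

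Inhibitors and feedback genes followed the cytokines without crush. Of 14 with rows, 13 were called higher with α9k1 (10 of 11 without genes as low as that in GFP-naive) and 1 was not called, with a median log2FC of 1.48. The highest were Tnfaip3 (3.06 ± 0.20), a brake on NF-κB, Il1rn (2.84 ± 0.37), the IL-1 receptor antagonist, and Zfp36 (2.59 ± 0.17), which speeds the decay of cytokine mRNAs. Tnip1 was called in 14 and Bcl3 in 16 of the 19 fits without 1 library. Il18bp was not called without α9k1-naive replicate 6 (adjusted p = 0.14). After crush, 5 of 14 were called higher with α9k1 (4 of 12 without genes that low in GFP-crush), Zfp36 (3.0 ± 0.37), Socs3 (2.79 ± 0.34), Nfkbia (2.48 ± 0.26), Tnfaip3 (2.42 ± 0.44) and Socs1 (1.84 ± 0.30). Tnfaip3 and Socs1 were not called without GFP-crush replicate 2 (adjusted p = 0.14 and 0.10).

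Crush with GFP called 7 of the 14 lower and 2 higher (1 of 11 without the low genes). Zfp36 (-1.15 ± 0.17), Socs1 (-1.09 ± 0.14) and Zfp36l1 (-1.01 ± 0.24) were the lowest. The 2 higher genes were Il1rn (2.53 ± 0.38), which like Il1b was above its GFP-naive level, and Il18bp (1.20 ± 0.23), which binds IL-18. Il18bp had an interaction of -2.05 ± 0.47 (adjusted p = 0.054), called in 14 of 19 fits without 1 library.

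Other chemokines were also higher with α9k1 in most cases. Of 14 with rows among 21 listed, 11 were called higher (8 of 11 without the low genes) and 1 lower, with a median of 1.75. Cxcl10 (4.51 ± 0.21), Cxcl13 (3.47 ± 0.31) and Ccl11 (3.32 ± 0.16) led, and Cxcl14 was lower (-1.48 ± 0.29). Ccl5 was called higher in 6 of the 19 fits without 1 library. Ccl9 and Ccl12 were not called without α9k1-naive replicate 6 (adjusted p = 0.16 and 0.18). After crush, only Cxcl10 (3.27 ± 0.46) and Ccl11 (2.28 ± 0.35) were called.

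With crush and GFP, 7 of these 14 were called higher (5 of 11 without the low genes) and 1 lower, against 7.39% and 15.7% of all genes, with a median of 0.75. Cxcl13 (3.85 ± 0.31) and Cxcl9 (3.68 ± 0.29), which attract lymphocytes, and Ccl5 (2.37 ± 0.35) rose most, and Ccl11 fell (-0.56 ± 0.16), a call lost without GFP-naive replicate 2 (adjusted p = 0.12). Of the 14, 5 were called with a negative interaction. These were Ccl12 (-4.36 ± 0.92), Cxcl9 (-4.02 ± 0.59), Ccl5 (-3.42 ± 0.73), Cxcl13 (-2.90 ± 0.63) and Cxcl16 (-1.67 ± 0.45). Ccl12 had a mean of 0.61 in GFP-naive, 1.73 in α9k1-naive, 3.27 in GFP-crush and 0.88 in α9k1-crush. It may be in the table only through GFP-crush, which enters the interaction with a minus sign, so its call adds no support. Cxcl9 was called in 19, Ccl12 and Ccl5 in 17, Cxcl13 in 15 and Cxcl16 in 3 of the 19 fits without 1 library, and leaving out GFP-naive replicate 3 or α9k1-crush replicate 4 ended 4 of these 5 calls.

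Other cytokines had rows for 9 of 25. Without crush, 3 were called higher with α9k1, all among the low genes, Il12b (2.61 ± 0.87), Tnfsf9 (2.49 ± 0.36) and Il18 (1.06 ± 0.30), and 3 lower, Cntf (-3.46 ± 0.31), Il33 (-0.54 ± 0.18) and Mif (-0.35 ± 0.11). Cntf, a gp130 cytokine of Schwann cells, thus moved against Il6. Without α9k1-naive replicate 6, the calls of Il12b, Il18 and Il33 were lost (adjusted p up to 0.36, 0.15 and 0.22), and GFP-naive replicate 4 likewise ended those of Il12b, Il33 and Mif (up to 0.14 for Mif). The list median was 0.04. After crush, limma called 0 of the 9 with α9k1, with 2 at an unadjusted p under 0.05.

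Inducible targets of IL-1 and TNF signalling had rows for 15 of 20. Without crush, 11 were called higher with α9k1 (7 of 11 without the low genes) and 4 were not called, with a median of 1.04. Nos2 (4.26 ± 0.41), the inducible nitric oxide synthase, Birc3 (2.91 ± 0.19) and Irf1 (2.68 ± 0.12) led, of which only Irf1 was not among the low genes. After crush 3 were called (2 of 13 without genes that low in GFP-crush), Nos2 (4.05 ± 0.89), Irf1 (2.74 ± 0.25) and Gadd45b (1.47 ± 0.35). Crush with GFP called 5 higher (3 of 11 without the low genes) and 3 lower. Birc3 (-1.52 ± 0.38) and Icam1 (-1.50 ± 0.28) had called negative interactions, in 10 and 19 of the 19 fits without 1 library. Birc3 is among the low genes, so its call adds no support. Nos2 and Gadd45b after crush were called in 13 and 4 of them. The 10 genes of these lists with a called difference between the crush groups lost it in a fit of these 2 groups alone (adjusted p from 0.41 to 0.85), and such fits ended 4 of 47 list calls for α9k1 without crush, 12 of 36 for crush with GFP and 10 of 11 for crush with α9k1.

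**Figure D3:**
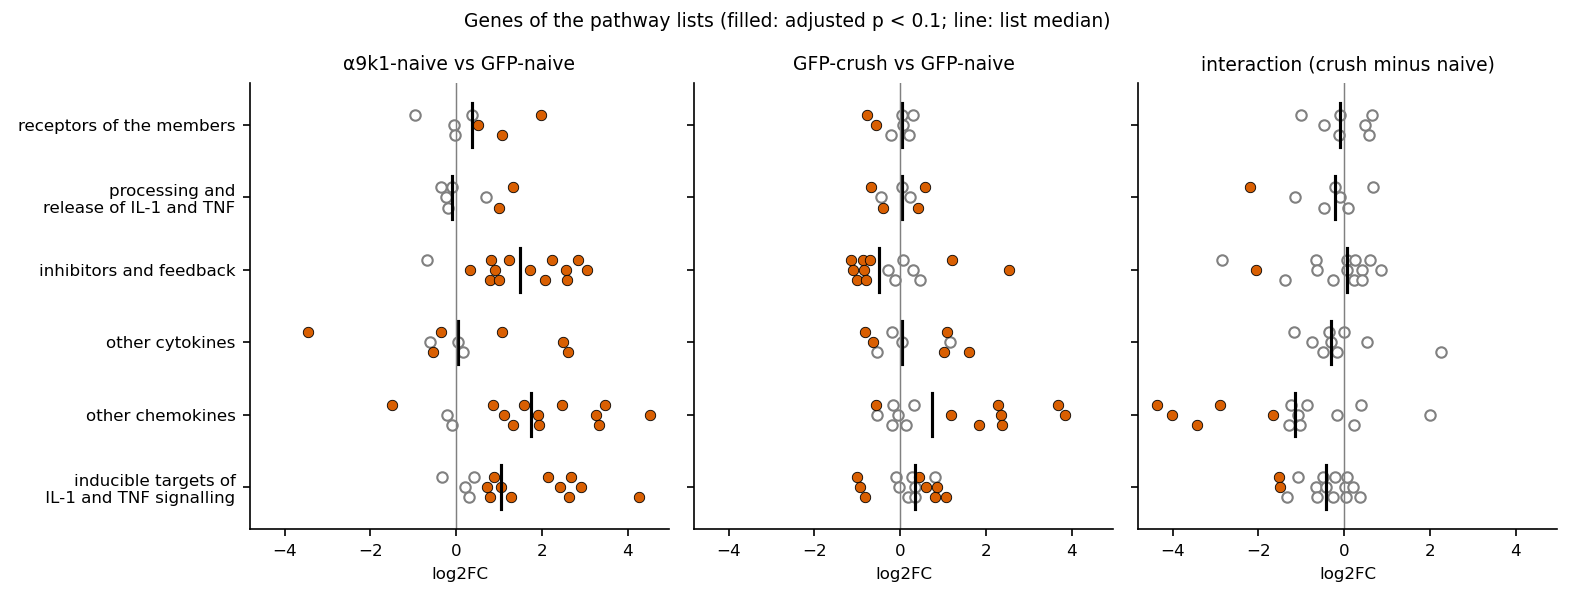
Fitted log2FC (x axis) of each gene in the 6 pathway lists (rows) for α9k1 without crush, crush with GFP and the interaction, with filled points for an adjusted p under 0.1 and a line at the list median. Inhibitors and other chemokines lie to the right in the first panel, with medians of 1.48 and 1.75, and the inhibitor median is below 0 in the second.

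Markers of other cells moved as well, and their levels are given beside these results. Of 16 macrophage and monocyte markers, 12 had rows, and Cx3cr1, Itgam, Mrc1 and Cd163 did not. Their summed level (log2) was 7.89 to 8.39 in GFP-naive, 9.21 to 9.78 in α9k1-naive, 9.56 to 10.1 in GFP-crush and 9.31 to 10.2 in α9k1-crush. Of the 12, 8 were called higher with α9k1 (11.4% of all genes) and 9 higher with crush and GFP (7.39% of all genes), among them C1qa (1.79 ± 0.23 and 1.97 ± 0.24) and Cd14 (2.38 ± 0.28 and 1.26 ± 0.28). Between α9k1-crush and GFP-crush, limma called 0 of the 12, with 1 at an unadjusted p under 0.05.

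The part of these cells in the cytokine results was not tested. None of 8 neutrophil markers had a row. Of 9 lymphocyte markers 1 had a row, Cd4. In whole libraries of sorted cells, more cells of a type and more RNA per cell cannot be told apart.

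Early response genes, which tissue dissociation can raise, were called higher with α9k1 in 12 of 12 cases, with a median log2FC of 1.31. Their summed level was 12.4 to 12.6 in GFP-naive, 13.6 to 13.99 in α9k1-naive, 11.6 to 11.8 in GFP-crush and 12.3 to 12.8 in α9k1-crush. With crush and GFP, 11 of 12 were called lower, and after crush 10 of 12 were called higher with α9k1. This order of groups is that of Il6, Ccl2 and Cxcl1, except that the α9k1-crush and GFP-naive libraries overlapped. Atf3 (2.99 ± 0.17), Fos (1.59 ± 0.15) and Junb (1.53 ± 0.17) led without crush. Their part in the cytokine results was not tested.

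Satellite glia and Schwann cell markers were mixed without crush, with 4 of 12 called higher and 4 lower, and summed to 15.7 to 16.1 in GFP-naive, 16.3 to 16.8 in α9k1-naive, 15.0 to 15.4 in GFP-crush and 14.4 to 15.1 in α9k1-crush. Endothelial and fibroblast markers were called lower in 7 of 7 cases with α9k1 (median -2.01), and summed to 9.56 to 9.88 in GFP-naive, 6.94 to 8.36 in α9k1-naive, 8.40 to 8.81 in GFP-crush and 7.99 to 8.48 in α9k1-crush. Neuron markers summed to 13.0 to 13.4, 13.1 to 13.5, 13.5 to 13.7 and 13.3 to 13.7 in the same order, so that beside the lower Il6, Ccl2 and Cxcl1 every GFP-crush library was above every GFP-naive library for neuron and macrophage markers and below for endothelial and fibroblast, satellite glia and Schwann cell, and early response genes. The sums are led by their most abundant genes, such as Apoe (15.6 in GFP-naive), and single genes went both ways. Crush with GFP called 5 neuron markers higher and 2 lower, Ntrk2 (-1.16 ± 0.16) and Scn9a (-0.88 ± 0.16), and 5 satellite glia and Schwann cell markers lower and 1 higher, Mbp (0.79 ± 0.25). Of the 14 neuron markers, 2 were called higher and 2 lower with α9k1, among them Nefh, a neurofilament (-2.32 ± 0.25, adjusted p = 1.2e-05). Ribosomal bases made up 0.0169 to 0.0898% of bases in α9k1 libraries and 0.0723 to 0.153% in GFP libraries. Whether these differences bear on the cytokines was not tested.

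**Figure D4:**
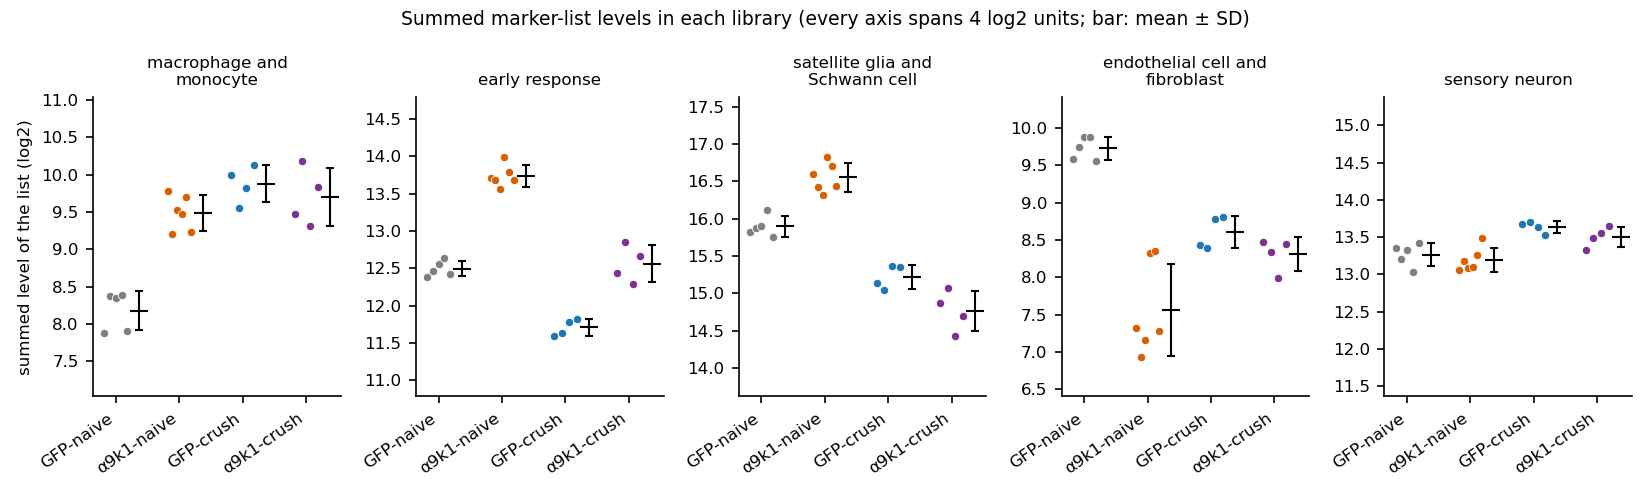
Summed level (log2 of the sum of linear values) of 5 marker lists in each library, by group, with the mean ± SD beside the points and every axis spanning 4 log2 units. Macrophage markers are lowest in GFP-naive, at 7.89 to 8.39, and early response genes are highest in α9k1-naive, at 13.6 to 13.99.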

How the data were processed

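RNA-seq of 19 libraries was analysed from tables that the authors deposited. Per the study's methods and the labels, the authors made libraries with the SMART-Seq v4 kit, aligned reads with STAR to mm10, counted per gene with Salmon, removed genes with few reads, moved the counts to a log2 scale with a pseudocount and normalized them for gene length and depth with cqn. The deposited log2 values were used as they are, so no other pseudocount could be tried, and counting error is unknown. Gene names came from the deposited gene table in its row order. That order was checked by rank correlation of its mean expression column with the values (rho 0.999, against at most 0.083 for shifted or shuffled orders). The fold changes, p-values and FDR of the authors' own comparisons in that table were not used. The deposited metrics of Picard hold counts, and also fractions, percentages and ratios of reads and bases, as the authors made them.

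One limma fit (limma 3.58.1, R 4.3.3) held 4 group means and the first 3 principal components of 48 scaled metrics (45.9%, 24.1% and 11.5% of variance). The study's batch term is not given in the sources used here and was left out. Calls use limma's moderated test at a p under 0.1 after Benjamini-Hochberg adjustment over the 12629 genes, and the fit was tested on simulated data. Nothing in the labels says that libraries come from separate animals, although the methods call them biological replicates, so p-values measure the spread between these libraries. The genes and gene lists were chosen with earlier results of these data known. Il1b and Il6, chosen by their values, were left out of counts of calls in every comparison. Genes named are all 10 cytokines, Fermt1 and Itga9, up to 3 called genes at either end of each of 13 lists in a comparison (where 5 or fewer were called, or a limit is given, others were named after their values were seen), and the 3 genes closest to each cytokine. Alternatives were 8 other fits and 19 fits without 1 library each. Motif matches used RefSeq windows, and tables and figures used Python 3.11.15, pandas 2.3.3 and matplotlib 3.10.9.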

Additional observations from a re-analysis of the deposited data

Results flagged for a closer look

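Among 76 groups of libraries looked at (7 genes and 12 summed lists in 4 groups each), 3 held a library far from the others, and chance alone flags about 1 in 20 groups. Il6 was at 7.67 in α9k1-naive replicate 6, with the other 5 libraries between 7.44 and 7.50. The summed level of the other chemokines was 9.33 in GFP-crush replicate 2, with the others between 10.1 and 10.3. The summed level of the genes for processing and release of IL-1 and TNF was 7.61 in GFP-crush replicate 4, with the others between 7.35 and 7.38.

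Of 71 cytokine and pathway genes tested, 10 had a called interaction of α9k1 with crush, while of all genes 0.847% had a called negative and 1.35% a called positive one. The interaction was -2.14 for Ccl7 (adjusted p = 0.092), -2.20 for Casp1 (adjusted p = 0.013) and -2.05 for Il18bp (adjusted p = 0.054). Among the other chemokines it was -4.36 for Ccl12 (adjusted p = 0.038), -4.02 for Cxcl9 (adjusted p = 0.0067), -3.42 for Ccl5 (adjusted p = 0.038), -2.90 for Cxcl13 (adjusted p = 0.043) and -1.67 for Cxcl16 (adjusted p = 0.098). Among the inducible targets it was -1.50 for Icam1 (adjusted p = 0.022) and -1.52 for Birc3 (adjusted p = 0.075). All 10 were negative. Ccl12 and Birc3 are among the low genes named above, so their calls add no support. Over 19 fits that each left out 1 library, Casp1, Cxcl9 and Icam1 were called in 19, Ccl5 and Ccl12 in 17, Cxcl13 in 15, Il18bp in 14, Birc3 in 10, Ccl7 in 7 and Cxcl16 in 3. With the replicate number as a block none of the 10 was called, and adjusted p ran from 0.13 to 0.34 for the 9 genes other than Ccl7.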

How the results depend on the processing

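Ccl2, Ccl7, Cxcl1 and Csf1 were called for α9k1 without crush in each of 8 other fits and 19 fits without 1 library, as was Il1a except where the filter on low values removed it. Without covariates, 5 of 5 genes were called for α9k1-crush versus GFP-crush and for α9k1-crush versus α9k1-naive, and 3 of 5 interactions, in a fit that called 3743 genes higher and 3580 lower, 3593 higher and 3424 lower, and 2943 positive and 2027 negative interactions. With only the 2 groups compared, 0 of 5 were called for α9k1-crush versus GFP-crush (2 at an unadjusted p under 0.05), 2 of 5 for GFP-crush versus GFP-naive and 0 of 5 for α9k1-crush versus α9k1-naive (4 unadjusted), and Csf1 changed sign for α9k1-crush versus GFP-crush (log2FC -0.15). With 1 library left out, counts ranged from 5 to 5 for α9k1-naive versus GFP-naive, 2 to 3 for α9k1-crush versus GFP-crush, 2 to 4 for GFP-crush versus GFP-naive, 3 to 3 for α9k1-crush versus α9k1-naive and 0 to 1 for the interaction (2 to 3 at an unadjusted p under 0.05). The 5 genes counted include Il1a, whose calls with α9k1 against GFP and in the interaction add no support.

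Signs changed only for estimates that were not called or not tested. Ccl7 in GFP-crush versus GFP-naive was 0.0094 with quantile normalization, 0.0058 with median centring, 0.012 without GFP-naive replicate 2 and 0.14 without GFP-crush replicate 4. Il1b in α9k1-crush versus α9k1-naive was 0.46 with the replicate block, and positive without GFP-naive replicate 4 (0.48), GFP-naive replicate 5 (0.13) or α9k1-naive replicate 1 (0.41). The interaction of Il6 turned positive without α9k1-naive replicate 4 (0.14) or without replicate 4 of α9k1-crush (0.067), and that of Cxcl1 without GFP-crush replicate 2 (0.15). With 1 library left out, these 4 estimates ranged from -0.35 to 0.14 for Ccl7, -0.85 to 0.48 for Il1b, -0.70 to 0.14 for Il6 and -0.43 to 0.15 for Cxcl1. The cause was not tested.

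Deviations from the group means of 25 same-numbered pairs of libraries correlated at a median of 0.020 (-0.27 to 0.15). Those of 109 pairs with other numbers correlated at a median of 0.00022 (-0.22 to 0.26). Of 18 libraries, 3 were closest to a library of their own number. With 4 to 6 libraries a group, these values cannot decide whether equal numbers stand for a shared batch or animal. With the number as a replicate block, 2 of 5 genes were called for α9k1-crush versus α9k1-naive and 0 of 5 interactions (1 at an unadjusted p under 0.05), and the counts of the 4 comparisons of groups stayed within 1.5 times. Il1b, untested, was then 5.13 for α9k1-crush versus GFP-crush. The block ended the calls of 11 of 47 list genes for α9k1 without crush, 6 of 36 for crush with GFP, 2 of 10 for α9k1 after crush, 7 of 11 for crush with α9k1 and 9 of 9 interactions. Over the 6 pathway lists, leaving out 1 library kept the number of called genes within 1.5 times in 515 counts and not in 55, leaving out the covariates did so in 10 counts and not in 20, the replicate block in 17 and not in 13, and the fits of 2 groups in 12 and not in 12. The 4 to 6 libraries a group limit all calls, and depth per gene is unknown.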
